A study of Mus musculus with 12 samples.

Results

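The haematopoietic stem cell transcription factor heptad (Tal1, Lyl1, Lmo2, Gata2, Runx1, Erg and Fli1) and 3 of its partners (Gfi1b, Ldb1 and Cbfa2t3) were followed in sorted murine stem and progenitor cells with and without BCR::ABL1, the fusion kinase that drives chronic myeloid leukaemia (CML). The 10 genes were taken by symbol, each matched to 1 Ensembl identifier, out of 56748 genes counted in 12 RNA-seq libraries. All 10 passed the filter on low counts. The lowest raw count of any of them in any library was 62, for Gfi1b.

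Both groups came from the same kind of animal. B6.SJL recipients (CD45.1), aged 8 to 12 weeks, received 2 irradiation doses of 4.25 Gy and then bone marrow from SCLtTA/BCR-ABL (DTG) donors (CD45.2), which the study's methods describe as a pool from mice of both sexes. The tetracycline-repressed transactivator that switches on BCR-ABL in these donors is driven by regulatory sequence of SCL, the older name of Tal1, so the transgene is on only where that sequence is active. All recipients drank tetracycline (TET) for 2 weeks. In 6 mice TET then continued (CTRL, labelled TET on and normal, BCR::ABL1−), and in 6 mice it was withdrawn for 2 weeks (CML 2wk, labelled TET off, BCR::ABL1+). The donor CD45.2+ Lin-Sca+Kit+ (LSK) cells of the recipients' bone marrow were sorted, a fraction enriched for stem and early progenitor cells. The labels give every CTRL sample as male and every CML 2wk sample as female, so the group and the labelled sex cannot be told apart. The study's methods instead describe the recipients, like the donors, as of both sexes, and the sorted cells are of donor origin.

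The heptad factors bind together at enhancers of blood stem cell genes, including their own, and have long been studied as a densely wired circuit that keeps stem and progenitor cells in their state. TAL1 and LYL1 are basic helix-loop-helix proteins that pair with E proteins on E-box sequence, LMO2 and LDB1 bridge them to GATA factors, and ERG, FLI1 (both ETS family) and RUNX1 bind DNA beside them. GFI1B and CBFA2T3 (ETO2) bring corepressors to these sites. Several heptad genes are also known as oncogenes in acute leukaemia.

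Libraries held 22804754 to 41832868 counts in CTRL and 16150817 to 25070105 in CML 2wk. Mitochondrial transcripts took 0.816% to 1.29% of counts in CTRL and 2.26% to 2.97% in CML 2wk. The biological coefficient of variation over all genes tested was 10.8% in CTRL and 32.6% in CML 2wk. CML 2wk replicate 2 stood apart from its group on the second principal component, and the summed level of 10 stromal markers was 905 CPM in it and 351 CPM in replicate 4, against 64.9 to 85.3 CPM in the other CML 2wk libraries and 70.9 to 101.5 CPM in CTRL. Values of the 10 genes and, for some lists, calls without these libraries are given further on. Calls in other lists also shifted, such as 9 rather than 8 megakaryocyte markers lower without replicate 2. Levels are CPM, counts relative to each library's total, on library sizes scaled by TMM factors, and tests are edgeR quasi-likelihood tests over 18438 genes, called at a Benjamini-Hochberg adjusted p under 0.05.

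Promoter sequence is shown for 4 of the genes to set the letters that the heptad proteins read beside the values that follow. The RefSeq table (GRCm38.p6) held 16 start sites for 8 of the 10 genes. Lmo2 and Fli1 were not in this search. Each line gives the 250 bases before the first listed start, 5′ to 3′ along the gene's own strand, with capitals for GATAA (GATA factors), GGAA (ETS factors) and TGTGGT (RUNX factors) or their reverse complements. The Tal1 window lies at chr4:115056176-115056425 (+ strand), that of Lyl1 at chr8:84701207-84701456 (+ strand), that of Gfi1b at chr2:28621983-28622232 (− strand) and that of Cbfa2t3 at chr8:122699110-122699359 (− strand). Tal1, Gfi1b and Cbfa2t3 are shown because each holds a GATAA match, and Lyl1 because it holds none.
Tal1: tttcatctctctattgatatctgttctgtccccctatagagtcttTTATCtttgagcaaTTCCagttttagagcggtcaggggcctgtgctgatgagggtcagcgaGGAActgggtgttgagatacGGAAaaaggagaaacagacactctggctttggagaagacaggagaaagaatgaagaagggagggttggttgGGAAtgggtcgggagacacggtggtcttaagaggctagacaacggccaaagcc
Lyl1: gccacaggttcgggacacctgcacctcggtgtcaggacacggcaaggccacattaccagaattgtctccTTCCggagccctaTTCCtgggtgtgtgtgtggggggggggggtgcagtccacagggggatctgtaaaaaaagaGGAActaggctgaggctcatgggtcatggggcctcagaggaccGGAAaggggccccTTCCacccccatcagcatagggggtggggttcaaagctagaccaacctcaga
Gfi1b: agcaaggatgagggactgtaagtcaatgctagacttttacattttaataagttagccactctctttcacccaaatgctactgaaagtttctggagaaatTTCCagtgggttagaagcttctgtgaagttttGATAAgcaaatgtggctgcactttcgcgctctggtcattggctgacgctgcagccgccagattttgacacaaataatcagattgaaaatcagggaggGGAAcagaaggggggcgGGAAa
Cbfa2t3: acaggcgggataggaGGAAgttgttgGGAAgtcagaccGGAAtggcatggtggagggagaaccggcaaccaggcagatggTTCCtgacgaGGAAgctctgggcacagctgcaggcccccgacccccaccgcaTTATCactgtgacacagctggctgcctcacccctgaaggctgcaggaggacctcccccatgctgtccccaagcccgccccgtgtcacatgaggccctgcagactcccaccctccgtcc

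GATAA on either strand was found in 5 of the 16 windows (31.2%), 1 window each for Tal1, Erg, Gfi1b, Ldb1 and Cbfa2t3, against 22.58% of 32851 RefSeq promoter windows of the same length. GGAA was in 15 of 16 windows (93.8%) against 93.45% of all. The E-box CANNTG, searched on both strands, left in lower case and free to share bases with the others, was in 7 of 16 windows (43.8%) against 66.22%, and TGTGGT was in 0 of 16 against 14.05%. A match describes letters only, and these are proximal windows, whereas the heptad is known mostly for binding distal enhancers.

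All 10 genes were lower in the BCR::ABL1+ cells. The test called 10 of 10 lower and 0 higher (0 also at an unadjusted p under 0.05, and 0 higher by DESeq2 and limma), while 29.0% of all genes tested were called lower and 30.6% higher (59.5% in either direction). The groups did not overlap for 9 of the 10 genes, against 20.6% of all genes tested that were lower without overlap. The median log2 fold change of the 10 was -0.88, beside 0.07 over all genes tested. A fall of 0.5 or more on the log2 scale was called for 8 of the 10 (18.3% of all genes tested), and one of 1 or more for 4 of the 10 (5.78%). In bulk RNA from a sorted population, fewer cells that express a gene and less of its RNA per cell cannot be told apart.

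**Figure D1:**
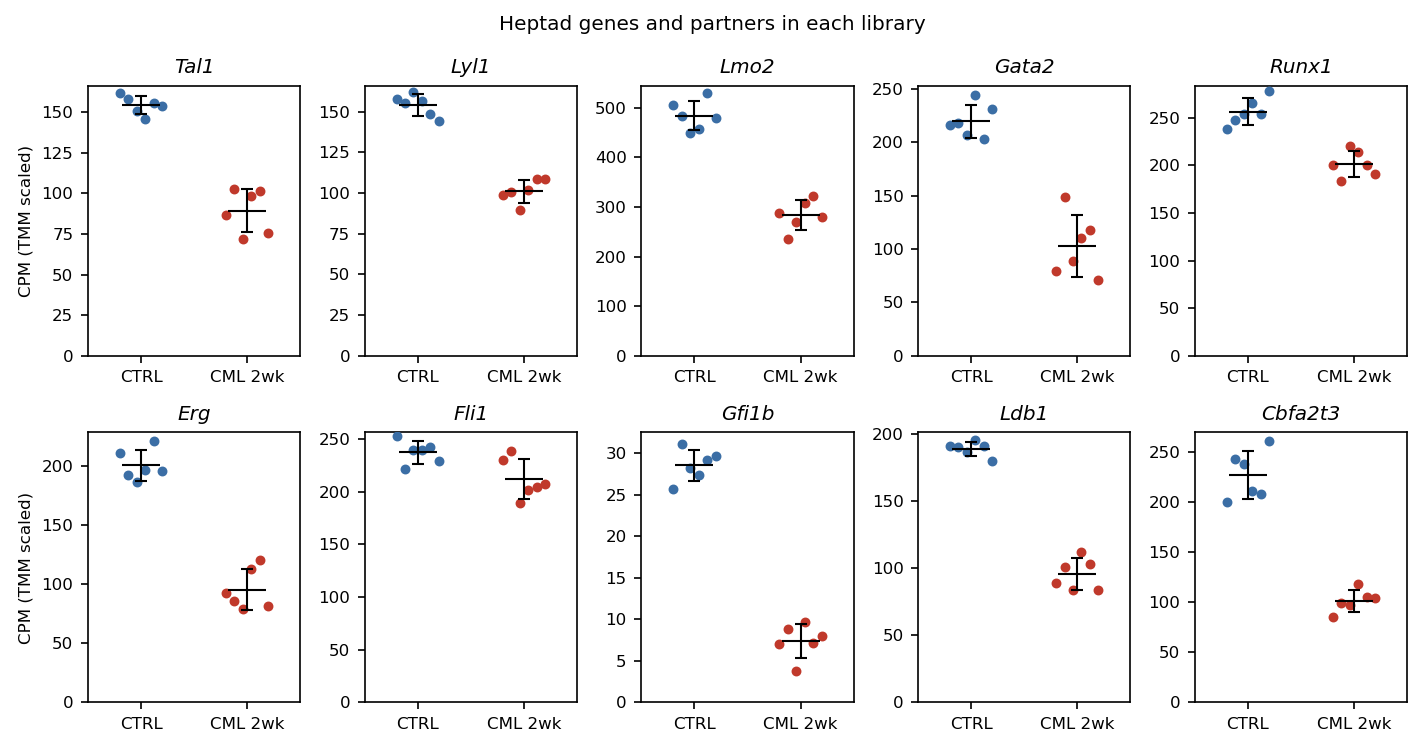
CPM (vertical axes, from 0) of each of the 10 genes in the 6 CTRL (blue) and 6 CML 2wk (red) libraries, 1 point per library, with the mean and SD as black bars. The groups are separate in every panel but that of Fli1, and Gfi1b shows the widest relative gap.

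Among the basic helix-loop-helix genes, Tal1, which is required to form blood and marks the start of the haematopoietic programme, fell. Tal1 was at 146 to 161 CPM in the CTRL libraries (median 154) and 71.7 to 102 CPM in the CML 2wk libraries (median 92.5). The lowest CTRL library lay well above the highest CML 2wk library. The means went from 154 ± 5.50 CPM to 89.4 ± 13.4 CPM (SD, n = 6 each), a log2 fold change of -0.78 (SE 0.0869, adjusted p = 2.78e-06). Lyl1, its closest relative, which can stand in for it in adult stem cells, also fell. Lyl1 was at 144 to 162 CPM in the CTRL libraries (median 156) and 89.6 to 109 CPM in the CML 2wk libraries (median 101). Again the groups did not overlap, and the spread within CML 2wk was narrow (CV 6.98%). The log2 fold change of Lyl1 was -0.61 (SE 0.0577, adjusted p = 6.86e-07). Lyl1 overlaps Nfix on the other strand in the GENCODE M21 annotation, and Nfix itself went from 179 to 83.2 CPM. Whether counting used the strand is not given in the sources used here, so reads from these neighbours cannot be told apart.

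The ratio of the pair within each library does not depend on scaling between libraries. The log2 ratio of Lyl1 to Tal1 counts was 0.00 ± 0.09 in CTRL and 0.19 ± 0.20 in CML 2wk (SD, n = 6 each). The difference of 0.19 did not pass (two-sided exact permutation test over 924 splits, p = 0.0498, adjusted over 5 ratios 0.0622), and the groups overlapped. It passed without CML 2wk replicate 2, where it was 0.23 with an adjusted exact permutation p of 0.0244.

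Lmo2, the LIM-only adaptor that joins TAL1 to its cofactors, had the highest level of the 10 per length in both groups. Lmo2 was at 449 to 529 CPM in the CTRL libraries (median 482) and 236 to 321 CPM in the CML 2wk libraries (median 284). Every CML 2wk library was below every CTRL library, with replicate 2 the lowest. Its log2 fold change was -0.77 (SE 0.0754, adjusted p = 8.68e-07). Ldb1, the LIM-domain binding protein whose self-association loops enhancers to promoters, went to 50.5% of its CTRL mean. Ldb1 was at 180.1 to 196 CPM in the CTRL libraries (median 191) and 83.8 to 112 CPM in the CML 2wk libraries (median 95). In CTRL it was the steadiest of the 10 (CV 2.79%), and in CML 2wk the lowest libraries were replicates 3 and 6. The means went from 189 ± 5.28 CPM to 95.6 ± 11.8 CPM (SD, n = 6 each), a log2 fold change of -0.99 (SE 0.0747, adjusted p = 1.06e-07). Ldb1 overlaps Pprc1 on the other strand, which went from 147 to 93.7 CPM.

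Gata2, the GATA factor of stem and early progenitor cells, which is also known in mast cells, fell in all 6 libraries. Gata2 was at 203 to 244 CPM in the CTRL libraries (median 217) and 70.9 to 149 CPM in the CML 2wk libraries (median 99.2). The groups did not overlap, but CML 2wk libraries spread more for Gata2 than for any other of the 10 (CV 28.2%), from replicate 6 (70.9 CPM) to replicate 2 (149 CPM). The log2 fold change was -1.10 (SE 0.147, adjusted p = 1.64e-05). Replicate 2 also had the highest summed level of 10 mast cell and basophil markers, 2462 CPM, against 459 to 1048 CPM in the other CML 2wk libraries and 114 to 225 CPM in CTRL. The part of these cells in the Gata2 level was not tested. Without replicate 2 the log2 fold change of Gata2 was -1.24.

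Gata1, the GATA factor that replaces Gata2 as erythroid and megakaryocytic cells mature, was compared with Gata2 in each library. Gata1 went from 18.5 ± 2.73 to 5.21 ± 1.60 CPM (log2 fold change -1.82, SE 0.189, adjusted p = 1.47e-06). The log2 ratio of Gata1 to Gata2 was -3.58 ± 0.24 in CTRL and -4.31 ± 0.63 in CML 2wk (SD, n = 6 each), a difference of -0.73 (two-sided exact permutation p = 0.0130, adjusted 0.0216). The groups overlapped in part. The call was lost without any 1 of CTRL replicates 1, 3, 5 and 6, with differences of -0.72, -0.69, -0.70 and -0.68 and adjusted exact permutation p-values of 0.0577, 0.0568, 0.0577 and 0.0577.

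Runx1, the core-binding factor that is required for the first stem cells and is mutated in several leukaemias, fell by less than all of the others but Fli1. Runx1 was at 238 to 278 CPM in the CTRL libraries (median 254) and 184 to 221 CPM in the CML 2wk libraries (median 199.9). The groups were close but did not overlap. Its log2 fold change was -0.34 (SE 0.0608, adjusted p = 0.000202), and the CML 2wk mean was 78.8% of the CTRL mean. Of the genes tested, 28.3% had a log2 fold change as low or lower.

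The ETS genes parted from each other. Erg, which stem cells need to self-renew, went to 47.5% of its CTRL mean. Erg was at 186 to 221 CPM in the CTRL libraries (median 196) and 79 to 120.4 CPM in the CML 2wk libraries (median 89). The groups were far apart, with replicates 4 and 5 the highest in CML 2wk. The means went from 200.4 ± 13 CPM to 95.2 ± 17.3 CPM (SD, n = 6 each), a log2 fold change of -1.07 (SE 0.102, adjusted p = 6.85e-07). Fli1, an ETS factor of stem cells and megakaryocytes, was the least changed of the 10. Fli1 was at 222 to 253 CPM in the CTRL libraries (median 239) and 189 to 239 CPM in the CML 2wk libraries (median 206). CML 2wk replicates 1 and 2 lay within the CTRL range. Its log2 fold change was -0.16 (SE 0.0648, adjusted p = 0.0408), with a 95% interval of -0.29 to -0.04. This call was lost in 12 of 22 alternatives, among them upper-quartile scaling (log2 fold change -0.09, adjusted p = 0.170 by edgeR), the replicate block (adjusted p = 0.0811 by edgeR) and leaving out CTRL replicate 1, 3, 4 or 5 or CML 2wk replicate 3, 4 or 5 (adjusted p of 0.0624 to 0.0833 by edgeR). Fli1 overlaps 6 other annotated genes, of which Gm37474 rose from 14.6 to 25.6 CPM. Lmo2, Runx1 and Cbfa2t3 also overlap annotated genes, those tested being at means of 1.98 to 10.4 CPM.

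The log2 ratio of Erg to Fli1 tests the contrast between these ETS genes directly. It was -0.25 ± 0.08 in CTRL and -1.17 ± 0.30 in CML 2wk (SD, n = 6 each), with no overlap, as the highest CML 2wk library was at -0.76 and the lowest CTRL library at -0.36. The difference was -0.92 (two-sided exact permutation p = 0.00216, the smallest that 6 against 6 allow, adjusted 0.00541). Leaving out any 1 library gave differences of -1.004 to -0.86, and the call held each time.

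Gfi1b, the zinc finger repressor of erythroid and megakaryocytic progenitors that also restrains stem cell cycling, fell most of the 10. Gfi1b was at 25.8 to 31.2 CPM in the CTRL libraries (median 28.7) and 3.80 to 9.71 CPM in the CML 2wk libraries (median 7.60). Every CML 2wk library was below every CTRL library, and replicate 3 was the lowest of all. The means went from 28.6 ± 1.88 CPM to 7.43 ± 2.04 CPM (SD, n = 6 each), 3.83-fold lower, with a log2 fold change of -1.94 (SE 0.164, adjusted p = 2.50e-07). Of the genes tested, 0.938% had a log2 fold change as low or lower. Its relative Gfi1, which represses granulocyte and stem cell targets and binds the same DNA sequence, went the other way, from 42.2 ± 2.78 to 68.5 ± 16.2 CPM (log2 fold change 0.70, SE 0.129, adjusted p = 0.000296). Gfi1 was higher in every CML 2wk library than in any CTRL library, though the lowest of the former (46.8 CPM) and the highest of the latter (46.6 CPM) were close.

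Within libraries the log2 ratio of Gfi1 to Gfi1b was 0.56 ± 0.17 in CTRL and 3.22 ± 0.62 in CML 2wk (SD, n = 6 each). The difference of 2.66 was past the threshold (two-sided exact permutation p = 0.00216, the smallest possible, adjusted 0.00541), and it ranged from 2.47 to 2.85 when any 1 library was left out. As a ratio of counts, Gfi1 went from 1.48 times Gfi1b to 9.34 times. These ratios are not scaled for gene length, so only their shift between groups can be read. The 3 tested genes whose log2 CPM tracked Gfi1b most closely over the 12 libraries were Csnk1d, a casein kinase (Pearson r = 0.991), Slc14a1, a urea transporter known in red cells (r = 0.990), and Arf3 (r = 0.988). These correlations run across both groups and so mostly restate the difference between them.

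Cbfa2t3 (ETO2), the corepressor that holds TAL1 targets in check in progenitors, also fell. Cbfa2t3 was at 199.97 to 260.5 CPM in the CTRL libraries (median 224) and 85 to 118 CPM in the CML 2wk libraries (median 102). The groups were far apart, and Cbfa2t3 was the most variable of the 10 in CTRL (CV 10.6%). The means went from 227 ± 24 CPM to 101 ± 11 CPM (SD, n = 6 each), a log2 fold change of -1.16 (SE 0.0860, adjusted p = 9.24e-08). The log2 ratio of Cbfa2t3 to Ldb1, its partner in the same complex, was 0.25 ± 0.18 in CTRL and 0.09 ± 0.15 in CML 2wk. The difference of -0.17 did not pass (two-sided exact permutation p = 0.119, adjusted 0.119), and the groups overlapped.

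**Figure D2:**
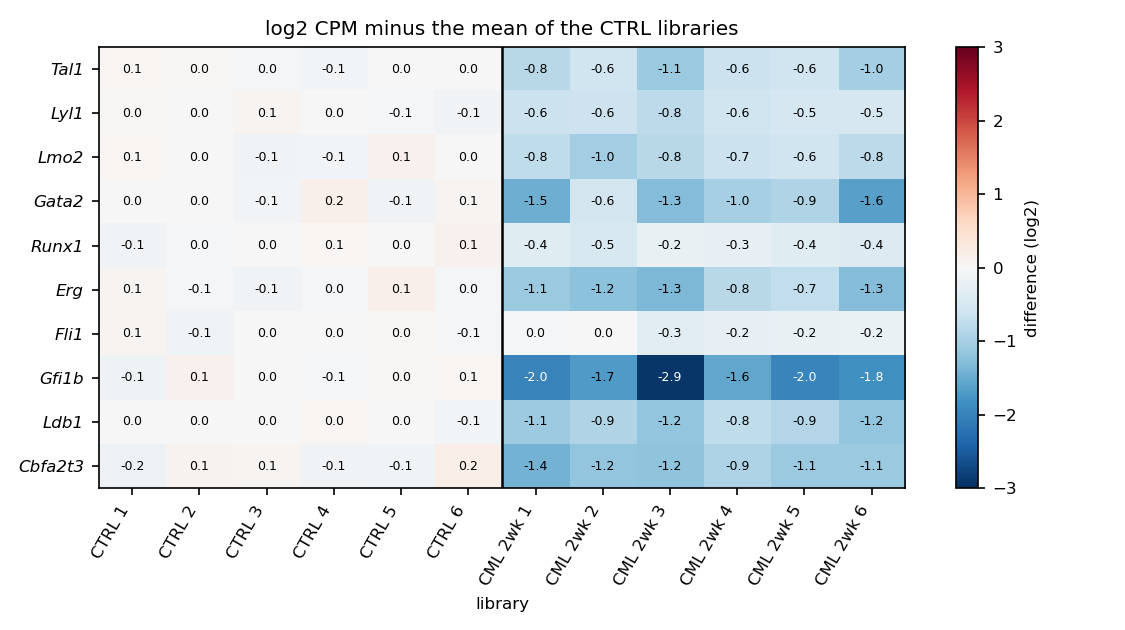
Difference of log2 CPM from the mean of the 6 CTRL libraries, for each of the 10 genes (rows) in each library (columns), with blue below and red above that mean and the value in each cell. CTRL libraries stay within about 0.2 of the mean, whereas in CML 2wk every gene but Fli1 is below it in every library.

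The fall was present in each BCR::ABL1+ library. The mean over the 10 genes of log2 CPM minus the CTRL mean was -0.97, -0.83, -1.12, -0.75, -0.78 and -0.997 in CML 2wk replicates 1 to 6, and between -0.02 and 0.02 in the CTRL libraries. All 10 genes were below the CTRL mean in 5 of the CML 2wk libraries and 9 in replicate 2, where Fli1 was at the CTRL mean. Gfi1b was the most reduced gene in all 6. The CV was higher in CML 2wk than in CTRL for all 10 genes, with ranges of 6.85% to 28.2% and 2.79% to 10.6%. Over all genes tested the biological coefficient of variation was also higher, at 32.6% in CML 2wk and 10.8% in CTRL, so this is not particular to the 10. For Cbfa2t3 the CV was nearly equal, 10.6% in CTRL and 10.8% in CML 2wk. With CML 2wk replicates 2 and 4 left out, an alternative added after the data were seen, 10 of 10 were again called lower, with a median log2 fold change of -0.98. The log2 fold changes were then -0.88 for Tal1, -0.61 for Lyl1, -0.75 for Lmo2, -1.31 for Gata2, -0.35 for Runx1, -1.11 for Erg, -0.20 for Fli1, -2.13 for Gfi1b, -1.08 for Ldb1 and -1.22 for Cbfa2t3. With all libraries Cbfa2t3 had the largest fall after Gfi1b, and without replicate 2 (-1.24 against -1.16) or without replicates 2 and 4 Gata2 did.

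Whether the 10 genes vary together among mice of 1 group was examined over 45 pairs in each group. In CML 2wk, 35 of 45 pairs had a positive Pearson r of log2 CPM (median 0.35), and in CTRL 18 of 45 (median -0.14). With 6 libraries per group, 1 and 3 pairs had an exact permutation p under 0.05, and none of the 90 passed adjustment (lowest adjusted p = 0.688).

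Levels between genes were compared as CPM per kilobase of exon (GENCODE M21 exon union, GRCm38). In CTRL the order was Lmo2 (223), Lyl1 (85.6), Fli1 (68.1), Erg (57.8), Ldb1 (41.1), Gata2 (40.7), Tal1 (35.2), Cbfa2t3 (27.1), Runx1 (21.3) and Gfi1b (15.6). The ranges of the libraries overlapped only between Fli1 and Erg and between Ldb1 and Gata2 among neighbours in this order. In CML 2wk, Lmo2 (131) was again first and Gfi1b (4.06) last. Fli1 (60.8) and Lyl1 (56.2) came next, with overlapping ranges. Erg (27.5), Ldb1 (20.8), Tal1 (20.4), Gata2 (19.0) and Runx1 (16.8) followed in a run in which each overlapped the next. Cbfa2t3 (12.1) came after them. Its range did not overlap that of its neighbour Runx1 but did overlap that of Gata2 (highest Cbfa2t3 library 14.1, lowest Gata2 library 13.1).

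The other proteins of the same complexes mostly fell with the 10. Of 14 genes for E proteins, LDB1-stabilising SSBP proteins, CBFB and corepressors, all tested, 12 were called lower and 1 higher (29.0% and 30.6% of all genes tested), with a median log2 fold change of -0.38 (0.07 over all genes tested). This list and those that follow, like the 10 genes, were chosen with earlier results of these data known. Their counts are set beside the shares of all genes and were not tested against them. Zfpm1 (FOG1), the cofactor that GATA proteins bind, fell most, from 188 ± 9.58 to 54.8 ± 13.5 CPM (log2 fold change -1.78, SE 0.133, adjusted p = 9.68e-08). Tcf3, which encodes the E proteins E12 and E47, was next, from 190.0 ± 12.1 to 102 ± 16.9 CPM (log2 fold change -0.90, SE 0.0944, adjusted p = 1.76e-06). Hdac1, a histone deacetylase, was the one called higher, from 113 ± 7.36 to 134 ± 17 CPM (log2 fold change 0.24, SE 0.0810, adjusted p = 0.0183). Its groups overlapped, and the call was lost with no filter on low counts (log2 fold change 0.17, adjusted p = 0.139 by edgeR), with replicates 1 to 5 only (0.20, adjusted p = 0.0639 by edgeR) and at a threshold of 0.01. Ssbp2 was not called, with a log2 fold change of 0.08 (95% interval -0.04 to 0.20, adjusted p = 0.25).

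The Id proteins, which bind E proteins and keep them from pairing with TAL1 and LYL1, did not move together. Id1 was called higher, from 1.29 ± 0.436 to 10.1 ± 3.65 CPM (log2 fold change 2.95, SE 0.270, adjusted p = 4.82e-07), at a low level in both groups. Its libraries ran over 0.793 to 2.08 CPM in CTRL and 6.62 to 16 CPM in CML 2wk, without overlap. Id2 had a log2 fold change of -0.20 (95% interval -0.61 to 0.21, adjusted p = 0.434) and Id3 one of -0.24 (95% interval -1.84 to 1.37, adjusted p = 0.82), and neither was called. The median of these 3 was -0.20, and Id4 did not pass the filter. Without CML 2wk replicate 2, Id2 was called lower (log2 fold change -0.41, adjusted p = 0.0402 by edgeR). Without replicates 2 and 4, Id3 was called lower (log2 fold change -2.81, adjusted p = 0.00449 by edgeR) and Id2 was not called (adjusted p = 0.0696 by edgeR). Id3 was at a very low level, with a mean of 1.05 CPM in CTRL and 0 to 0.543 CPM in the CML 2wk libraries then left.

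Of 16 family relatives of the 10 genes, 12 passed the filter, 9 were called lower and 2 higher (29.0% and 30.6% of all genes tested), and the median log2 fold change was -0.74 (0.07 over all genes tested). Gata1 and Gata3, a GATA factor of T cells and of stem cells, fell most, Gata3 from 13.8 ± 1.80 to 6.00 ± 1.55 CPM (log2 fold change -1.20, SE 0.161, adjusted p = 1.64e-05). The 2 called higher were Gfi1, above, and Lmo1, a LIM-only adaptor that can act as an oncogene in T cells, from 3.91 ± 0.682 to 10.02 ± 2.52 CPM (log2 fold change 1.355, SE 0.186, adjusted p = 2.01e-05). Lmo1 was low in both groups. Lmo4 was not called, with a log2 fold change of -0.12 (95% interval -0.29 to 0.06, adjusted p = 0.275). Tal2, Ldb2 and Runx1t1 did not pass the filter, and Lmo3 had no count in any library.

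The listed genes known to be bound or controlled by the heptad in blood cells were lower in nearly all cases. Of 15 tested, 14 were called lower and 0 higher, against 29.0% and 30.6% of all genes tested, with a median log2 fold change of -0.86 (0.07 over all genes tested). These counts were the same without CML 2wk replicates 2 and 4. Slc4a1, the red cell anion exchanger, had the largest fall, from 12.8 ± 8.32 to 0.800 ± 0.841 CPM (log2 fold change -4.00, SE 0.718, adjusted p = 0.000239), but its CTRL libraries spread over 2.32 to 22.4 CPM. Pf4, the platelet chemokine, was next, from 41.7 ± 11.4 to 5.20 ± 2.05 CPM (log2 fold change -2.99, SE 0.256, adjusted p = 2.75e-07). Eng, a TGF-beta coreceptor of stem and endothelial cells, went from 128 ± 5.62 to 51.1 ± 8.45 CPM (log2 fold change -1.33, SE 0.0932, adjusted p = 6.55e-08). Spi1 (PU.1), the myeloid master factor, was the exception, with a log2 fold change of 0.06 (95% interval -0.09 to 0.21, adjusted p = 0.526). This list shares genes with the stem cell markers (among them Kit and Cd34), Itga2b and Pf4 with the megakaryocyte markers and Klf1, Slc4a1 and Epor with the erythroid markers, so the lists are not separate evidence. The 15 are a selection of targets, and their count holds for these genes only. None is among the mast cell and basophil markers, of which 8 of 10 were called higher and 0 lower.

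**Figure D3:**
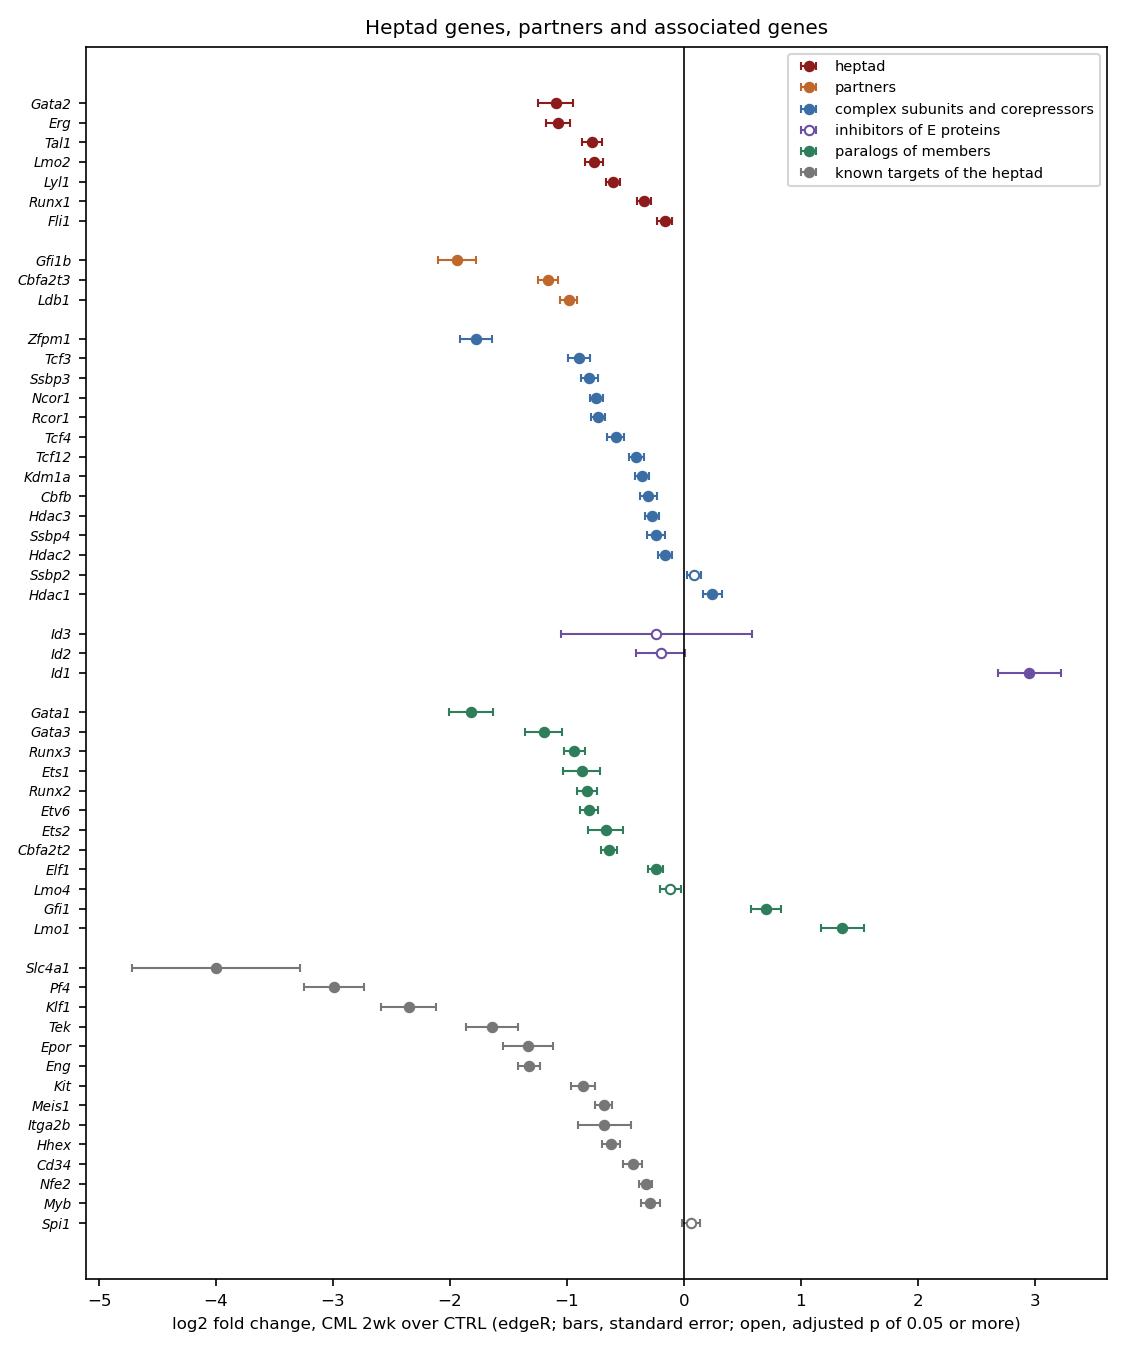
Log2 fold change of CML 2wk over CTRL (horizontal axis, edgeR, bars are standard errors) for the 10 genes and the 4 associated lists, 1 row per gene (14 of the 15 known targets are drawn), with filled points for adjusted p under 0.05 and open points otherwise. Points to the right of 0 are few and include Hdac1, Id1, Gfi1 and Lmo1.

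**Figure D4:**
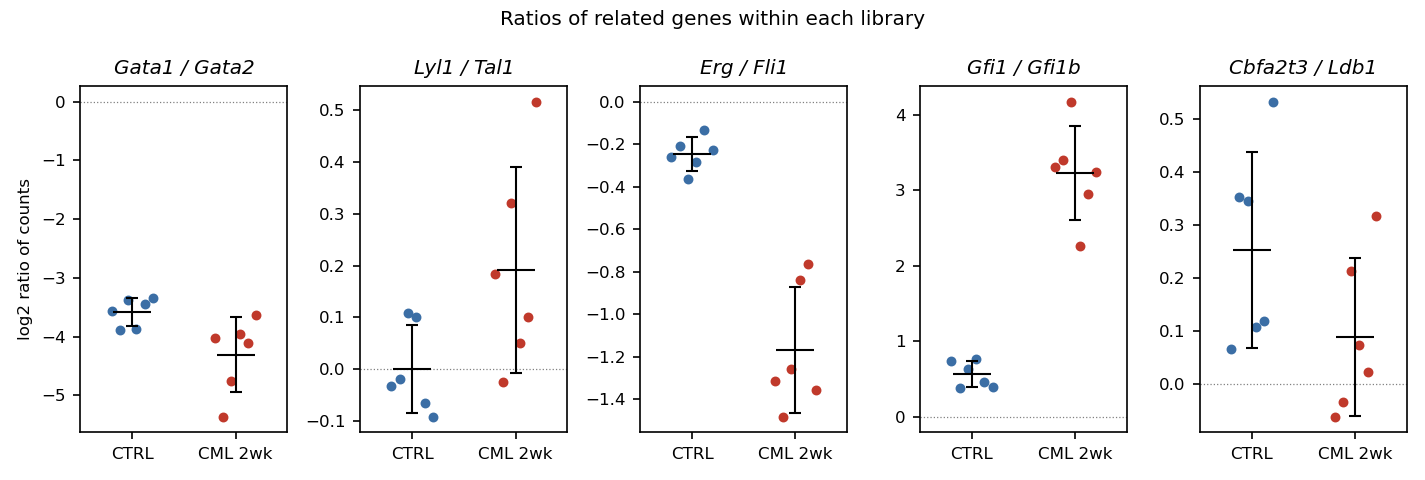
Log2 ratio of counts of related genes within each library (vertical axes, each with its own range), for CTRL (blue) and CML 2wk (red), 1 point per library, with mean and SD as black bars. Erg to Fli1 and Gfi1 to Gfi1b separate the groups without overlap, and the other 3 ratios overlap.

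The markers of the sort were present in both groups. Kit, the receptor used as a gate, was at 681 to 800.0 CPM in CTRL and 323 to 522 CPM in CML 2wk. It was called lower, without overlap (log2 fold change -0.86, adjusted p = 4.68e-06 by edgeR). Ly6a (Sca-1), the other gate, was at 27.2 to 38.3 CPM in CTRL and 31.4 to 74.1 CPM in CML 2wk and was not called (log2 fold change 0.38, adjusted p = 0.0660 by edgeR). Of 10 stem cell and LSK markers, 8 were called lower and 1 higher (29.0% and 30.6% of all genes tested). The 1 called higher was Cd48, without overlap (log2 fold change 1.10, adjusted p = 4.27e-08 by edgeR). Cd48 was at 83.0 to 112 CPM in CTRL and 190 to 221 CPM in CML 2wk. The lists of other cell types are given beside the shares of all genes called, 29.0% lower and 30.6% higher. Among erythroid markers 8 of 10 were called lower and 1 (Tfrc) higher, and Tfrc alone was at 119 to 152 CPM in CTRL and 256 to 641 CPM in CML 2wk. The other 9 summed to 109.6 to 211 CPM in CTRL and 18.8 to 50.5 CPM in CML 2wk, without overlap. Among megakaryocyte markers 8 of 9 tested were called lower, with sums of 352 to 408 CPM in CTRL and 136 to 324 CPM in CML 2wk.

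Mast cell and basophil markers rose for 8 of 10, with the sums given for Gata2, and none was called lower (Prss34 had a log2 fold change of -1.18 (95% interval -2.19 to -0.17, adjusted p = 0.0618)). Granulocyte markers were called higher for 4 of 10 and lower for 4 of 10, with sums of 2332 to 4688 CPM in CTRL and 3118 to 8542 CPM in CML 2wk. Of 9 endothelial markers tested, 5 were called lower and 1 higher, with sums of 283 to 328 CPM in CTRL and 204 to 233 CPM in CML 2wk, with Tie1 going from 73.3 to 19.8 CPM and Flt1 from 2.09 to 11.1 CPM. The defining gene Cdh5 was at 0.242 to 0.595 CPM in CTRL and at 0.184 to 1.63 CPM in CML 2wk apart from replicate 2 (6.89 CPM). Stromal markers were called higher for 4 of 6 tested, and for 2 without CML 2wk replicate 2. Without replicates 2 and 4, 0 stromal markers were called higher and 4 lower. B cell markers were called lower for 4 of 10, beside 29.0% of all genes tested. T and NK cell markers were called lower for 4 and higher for 2 of 8 tested (29.0% and 30.6% of all genes tested). Monocyte and macrophage markers were called higher for 1 of 9 tested (30.6% of all genes tested). The monocyte and macrophage sums of 58.1 to 77.8 CPM in CTRL and 39.4 to 135 CPM in CML 2wk overlapped. Without replicates 2 and 4, B cell markers were called lower for 7 of 10, granulocyte markers lower for 2 and monocyte and macrophage markers lower for 3. The part of these cell types in the fall of the heptad genes was not tested.

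**Figure D5:**
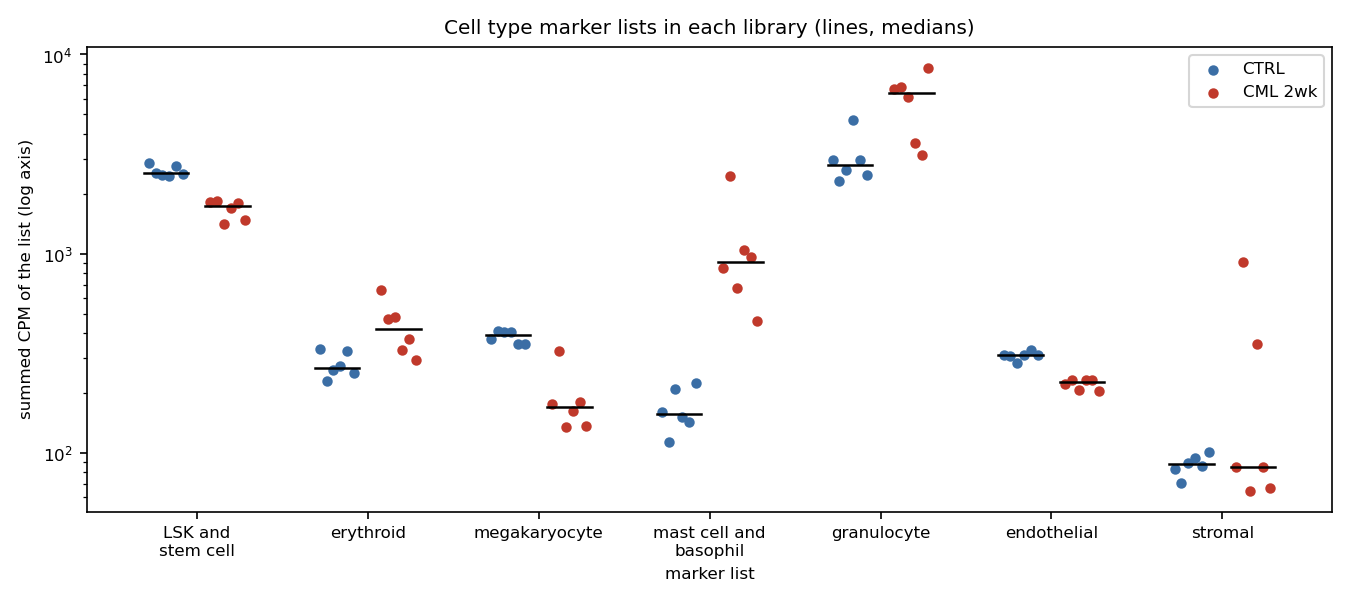
Summed CPM of 7 marker lists (vertical log axis) in each CTRL (blue) and CML 2wk (red) library, 1 point per library, with medians as black lines. Mast cell and basophil markers are higher in all CML 2wk libraries, and stromal markers are high in CML 2wk replicates 2 and 4 only.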

How the data were processed

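Total RNA of sorted cells was made into libraries with the Kapa RNA HyperPrep kit and sequenced paired-end. The deposited files hold raw read counts per Ensembl gene, 1 file per library. The submitters' processing notes name FastQC 0.11.9, fastp 0.23.2, STAR 2.7.10a, featureCounts 2.0.1, DESeq2 1.36.0 and mm39, whereas the study's methods describe another aligner for its bulk RNA-seq. The annotation, the strand setting and the handling of multimapped reads are not given in the sources used here. Human BCR::ABL1 transcripts are not in the counts.

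Symbols were matched by Ensembl identifier to GENCODE M21 (52073 of 56748 matched), and 0 rows named no gene. Counts were filtered with filterByExpr, scaled by TMM and tested with edgeR 4.0.16 (glmQLFit, glmQLFTest) in R 4.3.3 over all 12 libraries without covariates, with Benjamini-Hochberg adjustment over 18438 genes. DESeq2 1.42.0 and limma 3.58.1 were alternatives. Ratios were taken as log2 of counts plus 0.5, tested by exact permutation over all splits and adjusted with scipy 1.17.1. Intervals of log2 fold changes are normal 95% intervals from the standard error. Scripts were tested on simulated data. No library pair was closer than sampling noise (lowest chi-square per degree of freedom 3.78). Each library is labelled as a separate sample, and p-values measure the spread between these samples.

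The members and the gene lists were chosen with earlier results of these data known. The text names the 10 genes, the genes used in a ratio, the 3 genes most alike to Gfi1b, and, in each associated list, the called genes with the 2 largest rises and falls. Kit, Ly6a, Cd48, Eng, Ssbp2, Id2, Id3, Lmo4, Spi1, Cdh5, Tie1, Flt1, Prss34, Tfrc, the overlapping genes and the genes under the filter were named after their values were seen. 1 listed gene is counted in its lists and is not reported by name here.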

Additional observations from a re-analysis of the deposited data

Results flagged for a closer look

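Of 58 sets of values examined for a library far from its group, 6 were set apart, where about 2.9 are expected by chance, and none of them was a level of the 10 genes or a ratio. CML 2wk replicate 2 had the highest summed level of megakaryocyte markers (324 CPM, next 179.9), of mast cell and basophil markers (2462 CPM, next 1048) and of stromal markers (905 CPM, next 351). For T and NK cell markers, CTRL replicate 2 was low (98.96 CPM, next 117) and CML 2wk replicate 6 was high (211 CPM, next 140.4). CTRL replicate 4 was high for granulocyte markers (4688 CPM, next 2971).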

How the results depend on the processing

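The calls were repeated under 22 alternatives, of which 21 were new fits and the last was the main fit read at an adjusted p under 0.01. The 9 genes other than Fli1 kept their direction and their call in all 198 repeats. Fli1 lost its call in 12 of 22, and its log2 fold change ranged from -0.24 to -0.09 (adjusted p of 0.00841 to 0.170). None of the values reversed. Between 9 and 10 of the 10 genes were called lower, and between 8612 and 12130 of all genes were called. The inhibitors of E proteins went from 1 call to 2 without CML 2wk replicate 2, and also to 2 with CML 2wk replicates 2 and 4 left out, an alternative added after the data were seen.

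The difference in the log2 ratio of Gata1 to Gata2 ranged from -0.86 to -0.51 when 1 library was left out and lost its call 4 times. That of Lyl1 to Tal1 ranged from 0.13 to 0.23 and passed without CML 2wk replicate 2, and it also passed as a difference in medians (0.17). The cause was not tested. Gfi1b had as few as 62 counts in a library, so its values carry the most counting error of the 10. Upper-quartile scaling moved the median of all genes from 0.07 to 0.14 on the log2 scale.

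Replicate numbers did not pair the libraries: deviations from the group means of same-numbered libraries correlated at -0.13 to 0.07, and in 1 of 6 cases the best match was the same number. With the replicate block, 9975 genes were called, Fli1 lost its call (adjusted p = 0.0811 by edgeR) and the other 9 genes kept theirs. The log2 ratio of Cbfa2t3 to Ldb1, with the same difference of -0.17, then passed (exact sign-flip permutation p = 0.0312, the smallest that 6 pairs allow, adjusted 0.0391). As the numbers did not pair the libraries, this pass rests on an arbitrary pairing.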
